A study of Mus musculus with 7 samples.

Results

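The STAT genes encode the transcription factors that carry cytokine signals from the cell membrane to the nucleus. Here 6 of them, Stat2, Stat3, Stat4, Stat5a, Stat5b and Stat6, were described in tumor-associated macrophages of Dicer1-deleted and control mice. They were taken by Ensembl gene ID from the 24084 genes that the deposited files list, and all 6 had reads in all 7 libraries and passed the filter on low counts. RNA had been sequenced from F4/80+ cells sorted from established Lewis lung carcinomas, a mouse lung tumor line grown under the skin. The 3 Dicer1-deleted libraries came from LysM-Cre;Dicer–/– mice, which carry floxed Dicer1 alleles and Cre from the LysM locus, which is active in myeloid cells, both homozygous. The 4 control libraries came from LysM-Cre;Dicer+/+ mice, which bear the same Cre and the same tumor, so Cre itself and the tumor were common to both groups. The labels give no age and do not say whether libraries come from separate animals, so the p-values describe the spread among libraries, which may be technical.

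A cytokine that binds its receptor activates Janus kinases (JAKs), which phosphorylate a STAT protein. The phosphorylated STATs pair, enter the nucleus and bind DNA, in most cases at a palindromic site called GAS, while Stat2 works with Irf9 in a complex that binds the interferon-stimulated response element, ISRE. In macrophages Stat2 serves type I interferons, Stat3 the IL-6 and IL-10 families, Stat5a and Stat5b GM-CSF and IL-3, and Stat6 IL-4 and IL-13, whereas Stat4, which serves IL-12, is best known from T and NK cells. Activity depends on phosphorylation, which RNA levels do not measure. Dicer1 encodes the ribonuclease that makes mature microRNAs, short RNAs that pair through their seed with 3′ UTRs and lower the output of the mRNA.

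The libraries held 43.0 to 51.2 M uniquely placed reads, with both mates of a pair counted. Levels are given as CPM, reads of a gene per 1 M uniquely placed reads after TMM scaling. Dicer1 itself stood at 7.85, 6.86 and 7.85 CPM in the Dicer1-deleted libraries. The controls had 15.72, 15.75, 18.56 and 17.09 CPM, and the log2 fold change was -1.16 ± 0.23 (SE), with an adjusted p of 0.15 in edgeR and of 4.96e-05 in DESeq2. The fold was 0.448, with a 95% interval of 0.312 to 0.644, so Dicer1 reads were fewer but not absent. All 9 macrophage markers were detected in every library, with a summed level of 6753.1 to 9514.6 CPM in the Dicer1-deleted group and 6866.4 to 9378.0 CPM in the control group. Of the 9, 5 had a log2 fold change above 0 and 4 below. Lyz2, among the latter, is the gene of the LysM locus, which carries Cre in both groups. It was lower in every Dicer1-deleted library, at 52.97, 67.23 and 50.67 against 133.8, 211.9, 107.0 and 102.9 CPM. Its adjusted p was 0.0144 in DESeq2 and 0.235 in edgeR. Whether the Cre allele bears on the Lyz2 reads was not tested. The summed markers of 4 other cell types were higher in every Dicer1-deleted library, at 37.78 to 82.03 against 17.19 to 35.11 CPM for 18 T and NK cell markers, 41.41 to 51.56 against 12.12 to 19.52 CPM for 6 B cell markers, 156.5 to 233.0 against 63.4 to 138.9 CPM for 7 neutrophil markers and 46.75 to 84.15 against 17.91 to 24.16 CPM for 10 tumor epithelial and stromal markers. In the Dicer1-deleted libraries single genes carried most of these sums, except for B cells in replicate 2, where Bank1 gave 13.82 of 41.41 CPM. In the controls their part varied, and Klrk1 gave 1.57 of 17.19 CPM in replicate 2 and 18.96 of 35.11 CPM in replicate 3. The ranges overlapped without Klrk1, at 14.33 to 31.38 against 14.66 to 16.15 CPM for T and NK cells, without Pecam1, at 10.46 to 14.52 against 7.762 to 14.68 CPM for tumor and stroma, and without Mmp8, at 50.71 to 103.5 against 32.25 to 81.23 CPM for neutrophils, but not without Bank1, at 15.1 to 27.59 against 6.43 to 11.09 CPM for B cells. Cd2, of T and NK cells, and Krt18, of epithelium, were lower in every Dicer1-deleted library. Cd2 was 1.87, 1.32 and 1.88 against 3.9, 5.83, 7.66 and 4.6 CPM, so the sum without Klrk1 joins markers of both directions. Beside Klrk1, the T and NK cell markers Cd3g, Trbc2, Nkg7 and Gzma were higher in every Dicer1-deleted library, all at 6.02 CPM or below. Of 16 T and NK cell markers tested, 13 had a log2 fold change above 0 and 3 below. Among defining markers, Pax5 had no read in 2 Dicer1-deleted and 4 control libraries, Ly6g in 2 and 4, and Epcam in 2 and 3, while Cd3d, Cd3e and Cd3g did not exceed 1.66 CPM in any library. The part of these cells in the STAT values was not tested. Dicer1-deleted replicate 2 was the library least like the rest, with a median Pearson r of log2 CPM to the other libraries of 0.93 against 0.955 to 0.971 for the others over 16226 genes, so each member is also given without it.

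The STAT genes differed in how many microRNA seed matches their 3′ UTRs held. Seed matches, the reverse complement of bases 2 to 8, were searched for 18 microRNAs in the longest annotated 3′ UTR of each gene (GENCODE mouse release 21, GRCm38). Stat3 held 12 matches to 7 microRNAs in 3701 nt, Stat2 held 5 matches to 5 microRNAs in 1476 nt, Stat5b held 4 matches to 3 microRNAs in 2365 nt, Stat6 held 3 matches to 3 microRNAs in 976 nt, Stat5a held 1 match in 1173 nt, and Stat4 held none in 253 nt. Longer UTRs have room for more matches, and the median length over 12131 genes was 1142 nt. The mature microRNAs that match Stat5b, and let-7a, which matches Stat2 and Stat3, are printed from RefSeq with the seed in capitals:
let-7a-5p: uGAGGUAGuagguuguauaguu
miR-19b-3p: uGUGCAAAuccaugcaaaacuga
miR-125b-5p: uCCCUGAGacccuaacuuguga
miR-23a-3p: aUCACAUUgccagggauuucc

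Stat5b and Stat5a are neighbouring genes for closely related proteins, and their 3′ UTRs share a match to miR-19b only among the 18 microRNAs. Stat5b has a pair of miR-19b matches, at positions 184 and 1006 of its UTR, and 1 match each to miR-125b and miR-23a, whereas Stat5a has a single miR-19b match at position 90. The target sites follow, 5′ to 3′, with the seed match in capitals, together with the let-7a matches of Stat2 and Stat3:
Stat5b, miR-19b, position 184: agtgtgagtgcaTTTGCACgtcgtgttttt
Stat5b, miR-19b, position 1006: atgtttttcccaTTTGCACcctaatttgac
Stat5b, miR-125b: caaagtgaaagcCTCAGGGtgatttgttcc
Stat5b, miR-23a: aacaatactcgtAATGTGAagtgttaatac
Stat5a, miR-19b: accaacaatggcTTTGCACgtttcacaggg
Stat2, let-7a: gccatgccgtctCTACCTCccccagcgctt
Stat3, let-7a: cctcggagtgtgCTACCTCccccatgtgag

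Such matches are common. The let-7a match was found in 10.39%, the miR-19b match in 12.87%, the miR-125b match in 15.34% and the miR-23a match in 16.54% of the 12131 3′ UTRs searched, and no match was found in any of the 6 genes for miR-155 or miR-223, microRNAs well known from myeloid cells. A match describes the letters only, and microRNA levels were not measured in these libraries.

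All 6 genes matched RefSeq promoter sequences (GRCm38.p6, 250 bases before to 50 bases after a start site), in which 3 motifs were searched on both strands. The ISRE core, TTTCNNTTTC, was present in 3.44% of 32851 promoters, the GAS site, TTCNNNGAA, in 8.3%, and the same palindrome with a wider spacer, TTCNNNNGAA, in 6.95%. The Stat2 promoter held an ISRE core, whose first base lies at -222 from the start site, and a wide palindrome at -210, shown here in capitals on the plus strand because Stat2 is itself part of the complex that binds ISREs:
Stat2 promoter, chr10:128270256-128270317: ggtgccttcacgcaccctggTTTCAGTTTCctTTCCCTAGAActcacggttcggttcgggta
One of the Stat4 promoters held an ISRE core on the opposite strand, at -97 from its start site. No match to the 3 motifs was found in the windows of Stat3, Stat5a, Stat5b and Stat6, which says only that these letters are not in those windows.

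Stat6, the transcription factor of the IL-4 and IL-13 response, was the most abundant of the 6 genes in 7 of 7 libraries when levels were taken per length (CPM per kb of the longest coding transcript). Its level per length in the control libraries was 40.31, 42.89, 59.18 and 57.81, and in the Dicer1-deleted libraries 60.83, 43.15 and 47.43. It made up 63.57% ± 1.5 (SD, n = 4) of the summed level of the 6 genes in the control group and 57.2% ± 3.69 (SD, n = 3) in the Dicer1-deleted group. Stat3 came next with a control mean of 12.83 ± 1.25, then Stat2 with 7.63 ± 2.82, Stat4 with 3.75 ± 2.2, Stat5b with 2.29 ± 0.459 and Stat5a with 2.03 ± 0.607 (SD, n = 4, CPM per kb).

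The order Stat6, Stat3, Stat2, Stat4 held in all 7 libraries, as did Stat5b above Stat5a, while Stat4 was above Stat5b in 5 of 7. The control ranges of Stat2 and Stat4, of Stat4 and Stat5b, and of Stat5b and Stat5a overlapped, so in the controls these neighbours are not separated beyond their spread across libraries. In the Dicer1-deleted group the ranges of Stat2 and Stat4 and of Stat5b and Stat5a did not overlap, and those of Stat4 and Stat5b did. With the union of all exons as the length, or with the authors' deposited RPKM, Stat2 ranked above Stat3 in some libraries. The summed level was 87.8 ± 10.18 CPM per kb in the Dicer1-deleted group and 78.58 ± 14.33 in the control group (SD, n = 3 and 4), a log2 difference of 0.17 with a two-sided exact permutation p of 0.371.

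**Figure D1:**
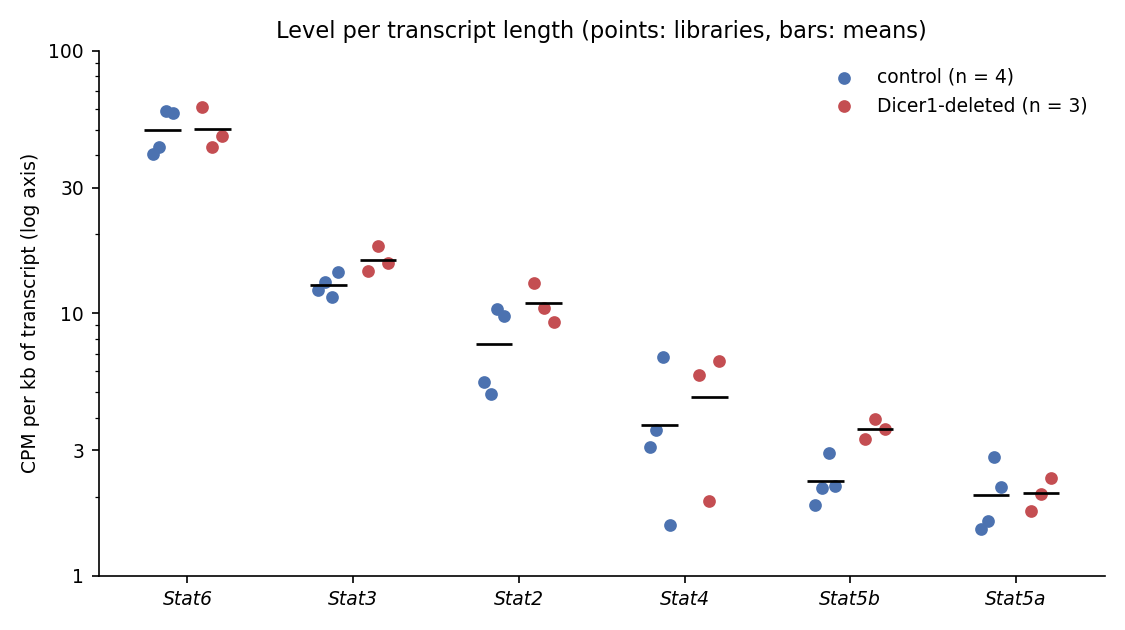
Level of each STAT gene per kb of its longest coding transcript (log axis), in order of the control mean. Each point is a library and each bar a group mean; Stat6 lies above the 5 other genes in all 7 libraries, and Stat4 has the widest spread.

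Across all genes, the edgeR quasi-likelihood test at an adjusted p of 0.05 called 4 of 16226 genes, 0.0247%, and none of the 6 STAT genes was among them. DESeq2, run as an alternative, called 2.5% of the genes it could adjust and also none of the 6. An unadjusted edgeR p below 0.05 was reached by 8.01% of all genes and by 1 of the 6, Stat5b. In edgeR with the unexplained L code of the titles as a covariate, Stat2 reached this level instead, with a log2 fold change of 0.80, an unadjusted p of 0.0388 and an adjusted p of 0.705. In that edgeR fit Stat5b did not reach it, with a log2 fold change of 0.65, an unadjusted p of 0.0537 and an adjusted p of 0.761. Every Dicer1-deleted library was above every control library for 3.86% of all genes, and for 2 of the 6, Stat5b and Stat3. The log2 fold changes of the 6 genes lay between 0.01 and 0.66, against a median of 0.03 over all genes tested. In RNA of sorted cells, fewer cells that express a gene and less RNA per cell cannot be told apart.

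Stat5b had the largest difference in the fit without covariates. Its level was 17.27, 20.63 and 18.83 CPM in the Dicer1-deleted libraries, against 9.68, 11.27, 15.31 and 11.44 CPM in the controls. All 3 Dicer1-deleted libraries were above the highest control library, replicate 3. The mean was 18.91 ± 1.68 against 11.93 ± 2.39 CPM (SD, n = 3 and 4), a fold of 1.59 with a 95% interval of 1.08 to 2.33. In edgeR the log2 fold change was 0.66 ± 0.25 (SE), with an unadjusted p of 0.0242 and an adjusted p of 0.486. DESeq2 gave 0.69 and an adjusted p of 0.197. Without Dicer1-deleted replicate 2 the log2 fold change was 0.60 with an adjusted p of 0.514 in edgeR, and over all fits, DESeq2 with a library left out included, the adjusted p lay between 0.124 and 0.894.

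Its neighbour Stat5a, the other transducer of GM-CSF and IL-3, differed little between the groups. It stood at 6.85, 7.98 and 9.18 CPM in the Dicer1-deleted libraries, against 5.83, 6.28, 10.97 and 8.48 CPM in the controls. The groups overlapped fully, with the lowest and the highest value both among the controls. The log2 fold change was 0.02 with a 95% interval of -0.66 to 0.70 (edgeR adjusted p = 0.999; 0.02 and 0.985 without Dicer1-deleted replicate 2), an interval that still allows changes of over 1.5-fold in either direction. Because the proteins are closely related, reads could be shared, but reads placed on several genes made up only 1.33 to 3.53% of the Stat5a reads and 0.247 to 2.19% of the Stat5b reads.

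Stat3, the transducer of the IL-6 and IL-10 families, was also higher in every Dicer1-deleted library, by a narrow margin. It stood at 87.1, 108.5 and 93.45 CPM in the Dicer1-deleted libraries, against 74.0, 79.58, 69.53 and 87.01 CPM in the controls. Dicer1-deleted replicate 1 and control replicate 4 were nearly equal, and the highest value was that of Dicer1-deleted replicate 2. The log2 fold change was 0.31 ± 0.23 (SE), with a 95% interval of -0.20 to 0.82 and an edgeR adjusted p of 0.921. Without Dicer1-deleted replicate 2 it was 0.22 (adjusted p = 0.734). Stat3 had the smallest spread of the 6 among the controls, with a coefficient of variation of 9.73%.

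Stat2, the partner of Irf9 in the type I interferon response, was 57.33, 46.14 and 40.6 CPM in the Dicer1-deleted libraries, against 24.15, 21.59, 45.61 and 42.8 CPM in the controls. Control replicates 1 and 2 were low, and control replicates 3 and 4 lay within the range of the Dicer1-deleted libraries. The log2 fold change was 0.52 ± 0.33 (SE), with a 95% interval of -0.21 to 1.25 and an edgeR adjusted p of 0.854. It was 0.54 when Dicer1-deleted replicate 2 was left out (adjusted p = 0.629) and 0.70 when control replicate 3 was (adjusted p = 0.771).

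Stat4 varied most. It was 17.35, 5.74 and 19.64 CPM in the Dicer1-deleted libraries, against 9.18, 10.68, 20.23 and 4.65 CPM in the controls, a 4.35-fold range over 7 libraries. Dicer1-deleted replicate 2 and control replicate 4 were low, and the highest value was that of control replicate 3. The log2 fold change was 0.35 ± 0.53 (SE), with a 95% interval of -0.84 to 1.54 and an edgeR adjusted p of 0.996. Single libraries moved it between 0.05, without Dicer1-deleted replicate 3, and 0.80, without control replicate 3. It was 0.18 without Dicer1-deleted replicate 1, 0.09 without control replicate 4 and 0.73 without Dicer1-deleted replicate 2 (adjusted p = 0.629). Since Stat4 is well known from T and NK cells, their summed markers are set beside it. They stood at 82.03, 66.82 and 37.78 CPM in Dicer1-deleted replicates 1, 2 and 3 and at 25.99, 17.19, 35.11 and 19.51 CPM in control replicates 1 to 4. Klrk1, a receptor of NK cells, gave 50.65, 52.49 and 20.66 CPM of the sums in the Dicer1-deleted libraries. Without it, Dicer1-deleted replicate 2 had the lowest sum of the 7 libraries, 14.33 CPM, beside its low Stat4 level. Control replicate 4, lowest in Stat4, had 14.66 CPM and control replicate 3, highest in Stat4, 16.15 CPM. Cd2 and Cd4 remained in these sums, at 1.32 and 0 CPM in Dicer1-deleted replicate 2. In the controls they were 3.9 to 7.66 and 1.55 to 4.53 CPM. Most markers went the other way, with 13 of 16 tested above 0, so the rank of Dicer1-deleted replicate 2 depends on the markers summed. The part of T and NK cells in the Stat4 values was not tested.

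Stat6 reached 229.6, 162.9 and 179.0 CPM in the Dicer1-deleted libraries, against 152.2, 161.9, 223.4 and 218.2 CPM in the controls. The groups overlapped over most of their range. The log2 fold change was 0.01 with a 95% interval of -0.59 to 0.62 and an edgeR adjusted p of 0.999, and 0.11 without Dicer1-deleted replicate 2.

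**Figure D2:**
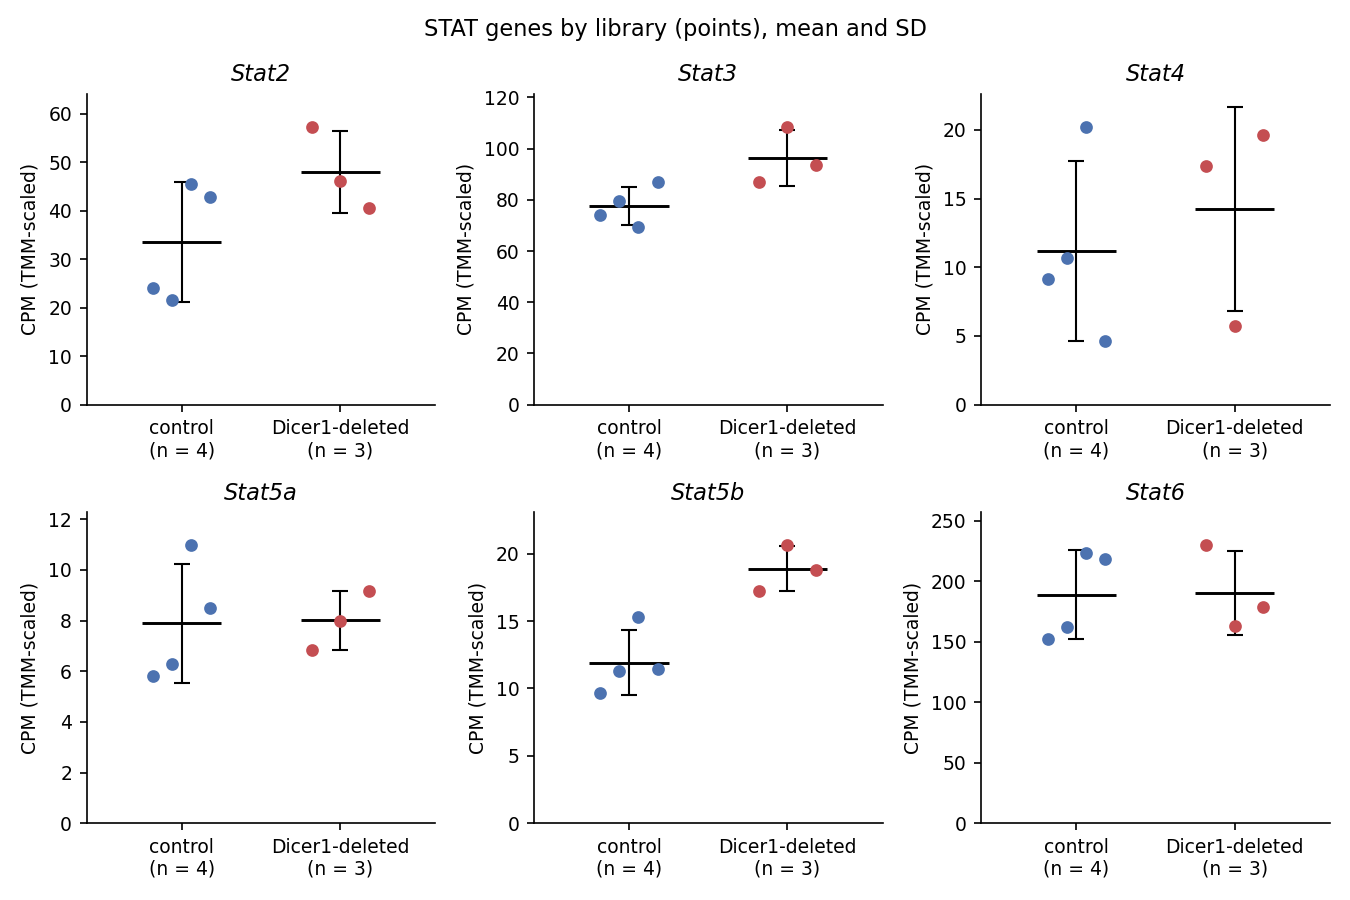
TMM-scaled CPM of each STAT gene in each library, with the mean and SD of 4 control and 3 Dicer1-deleted libraries (each axis starts at 0). The groups are apart for Stat5b, where the 3 Dicer1-deleted libraries lie at 17.27 CPM or above and the controls at 15.31 CPM or below, touch for Stat3 and overlap for the other 4 genes.

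**Figure D3:**
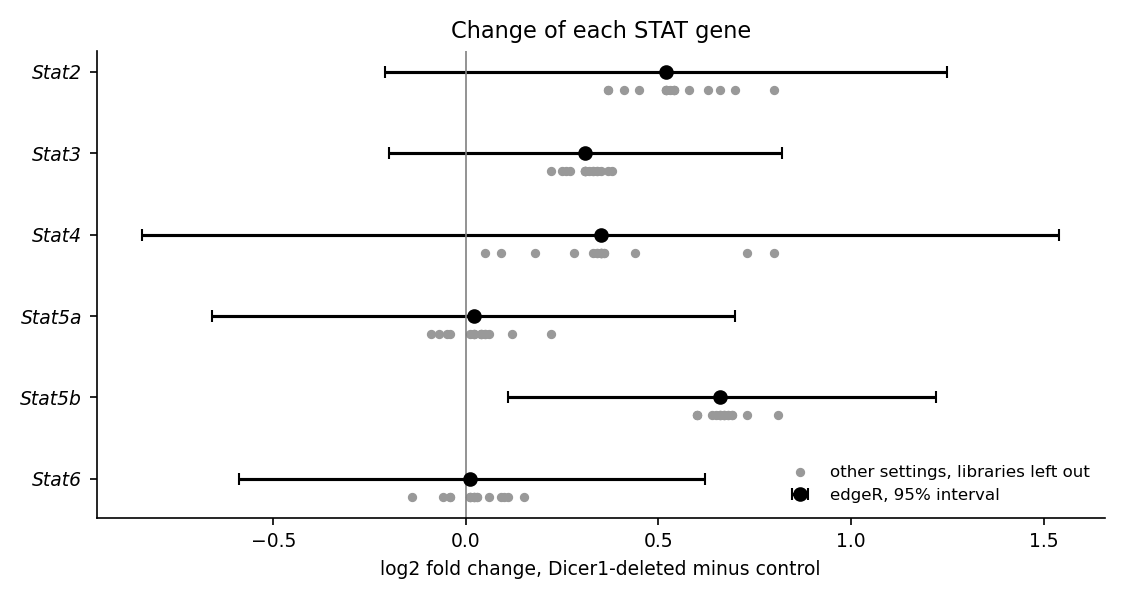
Log2 fold change of each STAT gene, Dicer1-deleted minus control, with its 95% interval from edgeR (black) and the values under other settings or with a library left out (grey). The interval leaves out 0 for Stat5b only, before any adjustment over the 16226 genes tested.

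The titles carry a code, L4 or L5, that the labels do not explain, and the groups divide unevenly over it, with 2 Dicer1-deleted libraries and 1 control under L4 and 1 and 3 under L5. Within L4 and L5 the differences of mean log2 CPM were 0.81 and 0.53 for Stat5b, 0.34 and 0.19 for Stat3, 1.0 and 0.67 for Stat2, 0.08 and 0.24 for Stat6, -0.01 and 0.87 for Stat4, and 0.45 and -0.25 for Stat5a. Stat5b, Stat3 and Stat2 were thus higher in the Dicer1-deleted group under both codes, and Stat2 had a larger difference than Stat5b under each.

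Ratios between STAT genes within a library do not depend on how libraries are scaled, and they asked whether one gene differed more than another. All 15 pairs were compared by a two-sided exact permutation test of the 7 libraries, which can give no p below 0.0286, and none passed after Benjamini-Hochberg adjustment. The log2 ratio of Stat5a to Stat5b was -1.33, -1.37 and -1.04 in the Dicer1-deleted libraries and -0.73, -0.84, -0.48 and -0.43 in the control libraries. Every Dicer1-deleted library was below every control library. The mean difference was -0.63 (exact p = 0.0286, adjusted p = 0.214).

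Stat5b also did not overlap between groups when set against Stat6. The log2 ratio of Stat5b to Stat6 was -3.73, -2.98 and -3.25 in the Dicer1-deleted libraries and -3.97, -3.85, -3.87 and -4.25 in the control libraries, a difference of 0.66 (exact p = 0.0286, adjusted p = 0.214). The ratio of Stat2 to Stat6 differed by 0.56 (exact p = 0.0571, adjusted p = 0.286), again with every Dicer1-deleted library above every control library.

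**Figure D4:**
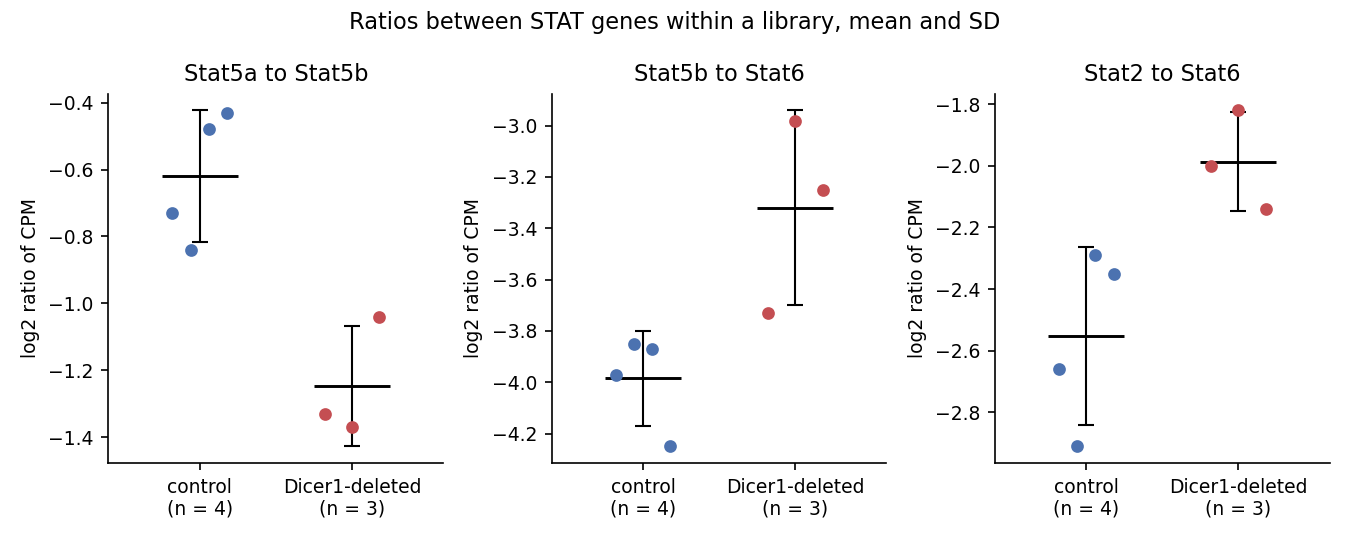
Log2 ratio of CPM within each library for 3 pairs of STAT genes, with the mean and SD of each group. The Dicer1-deleted libraries lie below the controls for Stat5a to Stat5b and above them for the other 2 ratios, and none of the 3 differences passed adjustment over 15 pairs.

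The genes that act with the STATs were taken from 14 lists, 136 genes in all, of which 127 were tested. The lists were drawn up with earlier results of these data known, so their direction is no independent evidence. In edgeR 0 of 127 passed at an adjusted p of 0.05, with 15 higher and 8 lower at an unadjusted p below 0.05, a level that 8.01% of all genes reached. DESeq2 called 3 higher and 5 lower of the 127, beside 2.5% of all genes. Of these 8, Il12rb1 met the count filter through the Dicer1-deleted group and Ccl17 through the control group, so each had to differ to be tested, and no test is given for them. With single libraries left out, a check added after seeing the data, DESeq2 called 5 to 12 of the listed genes and 237 to 396 over all genes. Retnla was called in 7 of the 7 fits, Il27, Klf4 and Timp1 in 6, Ccl22 in 3 and Pparg in 2. In all, 70 were above 0 and 57 below, beside 52.56% of all genes tested above 0. The median log2 fold change was 0.12 against 0.03 for all genes.

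Upstream of the STATs, the medians were 0.24 for 4 JAK kinases, 0.60 for 5 interferon receptor genes, 0.30 for 9 receptors of the IL-6 and IL-10 families, 0.38 for 3 receptor genes of IL-4 and IL-13 and 0.58 for 8 receptors of GM-CSF, IL-3 and related cytokines. The last was 0.32 without Dicer1-deleted replicate 2. No gene of these lists passed in either tool. Jak1, the kinase shared by most of these receptors, was 175.6 ± 19.62 against 136.8 ± 11.76 CPM (SD, n = 3 and 4; log2 fold change 0.36 ± 0.23). Ifngr2, a chain of the interferon gamma receptor, was 96.98, 103.2 and 107.1 CPM in the Dicer1-deleted libraries, against 62.26, 67.05, 74.3 and 67.37 CPM in the controls, without overlap, and missed the threshold at an adjusted p of 0.462 in edgeR and 0.0526 in DESeq2. Csf2rb, the signaling chain of the GM-CSF receptor that feeds Stat5a and Stat5b, had a log2 fold change of 0.48 ± 0.27, and Il4ra, the IL-4 receptor chain upstream of Stat6, 0.38 ± 0.26.

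Il12rb1, a receptor chain for IL-12 and IL-23 and so upstream of Stat4, was 3.49, 10.67 and 1.49 CPM in the Dicer1-deleted libraries, against 0.293, 0.18, 0.109 and 0 CPM in the controls. Every Dicer1-deleted library was higher, the highest being replicate 2. Il12rb2, the other tested gene of this list, is named beside it though its mean is under 5 CPM. It was 4.23, 0.508 and 3.76 against 1.64, 1.57, 2.11 and 2.23 CPM, with overlap, and lowest in Dicer1-deleted replicate 2. Its log2 fold change in edgeR was 0.59 ± 0.60 (adjusted p 0.996). Among 14 ligands tested, Il27, the cytokine subunit whose receptor signals through STATs, rose in DESeq2, from 0.797, 1.53, 0.729 and 1.37 CPM in the control libraries to 5.06, 9.04 and 2.6 CPM (log2 fold change 2.33 ± 0.49, adjusted p 0.00115 in DESeq2 and 0.156 in edgeR). Without Dicer1-deleted replicate 2 the DESeq2 adjusted p of Il27 was 0.0532. Il10, the Stat3-activating cytokine, had a log2 fold change of 0.98 ± 0.41 and did not pass.

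Partners and inhibitors centered near 0. The median log2 fold change was -0.03 for 5 STAT partners and -0.03 for 18 inhibitors, and none passed. With a library left out or the L code as covariate these medians lay between -0.11 and 0.19 and between -0.10 and 0.20, and that of the 14 ligands, -0.04, between -0.17 and 0.21. Irf9, which joins Stat2, was 97.61 ± 39.22 against 102.9 ± 20.43 CPM. Ptpn1, a tyrosine phosphatase that acts on JAKs, was 69.95, 131.7 and 61.9 CPM in the Dicer1-deleted libraries and 45.32 to 49.86 CPM in the control libraries, without overlap (log2 fold change 0.90 ± 0.30, adjusted p 0.39 in edgeR and 0.141 in DESeq2).

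Known targets of the STATs differed by list, beside 52.56% of all genes tested with a log2 fold change above 0. Of 22 Stat2 target genes, the interferon-stimulated genes, 9 were above and 13 below 0 with a median of -0.05, and none passed. The sign of this median turned, to 0.33 without control replicate 3, 0.10 without Dicer1-deleted replicate 2, 0.03 without control replicate 4 and 0.43 with the L code as covariate. Of 17 Stat3 target genes 13 were above 0 with a median of 0.34, which was 0.11 without Dicer1-deleted replicate 2. Timp1, an inhibitor of metalloproteinases, was the member that passed in DESeq2, and it fell, from 24.58 ± 4.54 to 8.62 ± 3.27 CPM (log2 fold change -1.51 ± 0.31, adjusted p 0.00212 in DESeq2 and 0.156 in edgeR, and 0.0533 in DESeq2 without Dicer1-deleted replicate 1). Pim1, a kinase gene on both the Stat3 and the Stat5 list, had a log2 fold change of 0.71 ± 0.29 and did not pass. The median was 0.55 for 7 Stat4 target genes and 0.24 for 10 Stat5 target genes, without a call. These medians depended on single libraries and on the L code as covariate, running from 0.18 to 1.05 for the Stat4 list, lowest without Dicer1-deleted replicate 1, and from 0.09 to 0.50 for the Stat5 list, lowest without control replicate 2. Ccnd2, a cyclin gene on the Stat5 list, was 76.1, 74.04 and 56.56 CPM in the Dicer1-deleted libraries, against 20.12, 10.32, 50.82 and 15.77 CPM in the controls (adjusted p 0.375 in edgeR and 0.0884 in DESeq2).

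The Stat6 target genes had the lowest median of the lists, -0.85, with 13 of 17 below 0, while Stat6 itself had a log2 fold change of 0.01. The median was -0.41 without control replicate 3. DESeq2 called 4 lower and 1 higher, beside 2.5% of all genes, and edgeR none. Among the 4 lower was Ccl17, which met the count filter through the control group and so had to differ to be tested. Retnla, a marker of IL-4 activated macrophages, was 1.79, 2.69 and 2.13 CPM in the Dicer1-deleted libraries, against 17.32, 14.32, 42.26 and 3.78 CPM in the controls (adjusted p 0.000241 in DESeq2 and 0.181 in edgeR). The chemokine Ccl22 was 2.82, 1.02 and 0.896 CPM against 15.81, 2.92, 30.08 and 3.42 CPM (adjusted p 0.00786 in DESeq2 and 0.321 in edgeR, and up to 0.284 in DESeq2 with a library left out). Ccl17, a chemokine that shares its receptor, was at most 0.0427 CPM in the Dicer1-deleted libraries, against 1.84, 0.18, 4.81 and 0.365 CPM in the controls.

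Klf4, a transcription factor named here after its values were seen, fell in DESeq2 from 162.7 ± 32.56 to 77.29 ± 4.97 CPM (adjusted p 0.00298, 0.214 in edgeR, and 0.0645 in DESeq2 without Dicer1-deleted replicate 1). Pparg, a nuclear receptor of lipid metabolism, rose in DESeq2 from 6.37 ± 1.95 to 14.91 ± 2.91 CPM (adjusted p 0.0184, and 0.233 in edgeR), and its adjusted p in DESeq2 with a library left out was 0.00118 to 0.178, above 0.05 in 5 of 7 fits. Control replicates 1 and 3, the highest in Ccl17, Ccl22 and Retnla, also had the highest sums of 8 dendritic cell markers, 50.52 and 140.7 CPM, against 8.71 CPM in both other controls and 11.53 to 15.15 CPM in the Dicer1-deleted libraries. Most of that sum was Cd209a, at 38.07 and 108.6 CPM. Xcr1, Clec9a and Batf3, markers of conventional type 1 dendritic cells, were instead higher in every Dicer1-deleted library, Xcr1 at 5.27, 2.64 and 5.51 against 0.474 to 1.5 CPM in the controls. Ccr7, of the same list, was lower in every Dicer1-deleted library, at 1.04, 1.47 and 0.427 against 8.01, 1.62, 25.19 and 2.37 CPM. Of 7 dendritic cell markers tested, 3 had a log2 fold change above 0 and 4 below. The part of dendritic cells in the falls of Stat6 target genes was not tested.

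**Figure D5:**
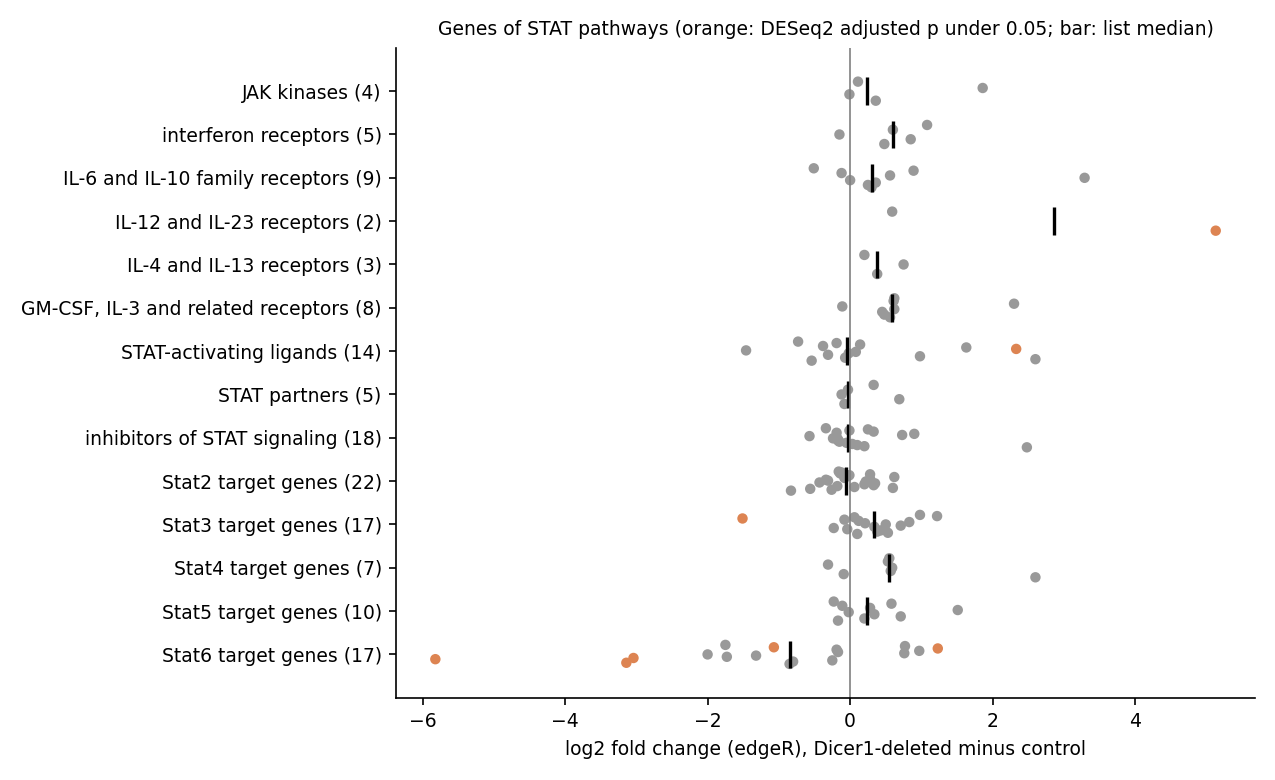
Log2 fold change in edgeR of the tested genes of 14 lists around the STATs, with the number tested after each name; bars are list medians and orange points passed DESeq2 at an adjusted p of 0.05. Points to the left of 0 prevail on the Stat6 target list, with 13 of 17 genes, and on no list did a gene pass in edgeR.

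Genes whose levels followed each STAT gene most closely were picked by Pearson r of log2 CPM over the 7 libraries, among 8758 genes, as a description. Stat5b was most like Mapkapk3 (r = 0.99), a kinase gene downstream of p38, followed by Smox (0.975), for spermine oxidase, and Pik3cd (0.962), for a leukocyte PI3-kinase subunit. Stat3 was most like Gpr157 (0.979), Ubr4 (0.977) and Ugcg (0.976). Stat2 was most like Sipa1l1 (0.976), Afg3l1 (0.968) and Eif5 (0.967), the last a translation initiation factor. Stat4 followed Gtse1 (0.989), a gene of dividing cells, then Abca9 (0.968) and Shmt1 (0.961). Stat5a had the least close followers, Heatr5b (0.958), Lin54 (0.952) and Pml (0.933). Stat6 was most like Notch1 (0.98), Trmt6 (0.972) and Rrp12 (0.969). The number of genes with r above 0.9 ran from 9 for Stat5a to 107 for Stat6. With 7 points and 8758 genes, high values arise for any gene, and all points share their libraries, so no p is given.

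In position, Stat5b, Stat5a and Stat3 lie side by side on chromosome 11 (GRCm38). Stat5b spans 100780731 to 100850724 on the minus strand, Stat5a 100859351 to 100885169 on the plus strand and Stat3 100885098 to 100939540 on the minus strand. Stat5b and Stat5a are 8626 bases apart, and the annotated ends of Stat5a and Stat3 overlap by 72 bases. Stat6 (127642986 to 127660957) and Stat2 (128270559 to 128292849) lie on chromosome 10, and the end of Stat6 overlaps Nab2 on the other strand by 40 bases. Stat4 (chromosome 1, 51987148 to 52107189) overlaps the annotated genes Gm28177, on the same strand, and Gm3940, on the other. How the authors counted reads in such overlaps is not stated, and as the libraries kept no strand, reads of genes on opposite strands cannot be told apart there.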

How the data were processed

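RNA of 7 libraries was read as pairs of 50 nt after amplification from 2 ng of total RNA (SMARTer) and Nextera XT preparation, per the labels' protocols, which state a RIN above 7. The deposited files give per gene the counts of uniquely placed reads, expected counts in which multiply placed reads are added as fractions, and RPKM, per the file headers. The totals and lengths behind the RPKM of the authors are not stated. The submitters' processing notes name Bowtie2. Its version, the genome build, the annotation and the counter were not stated in these sources. In all libraries the unique counts were even, so both mates were counted. The 31124 values unlisted in single libraries were set to 0.

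Unique counts were fitted in edgeR 4.0.16 (R 4.3.3) with filterByExpr (16226 genes kept), TMM factors, its quasi-likelihood test and adjustment by Benjamini-Hochberg over all genes at 0.05. The biological coefficient of variation was 45.1%, at a depth of 43.0 to 51.2 M reads. DESeq2 1.42.0, limma-voom (limma 3.58.1), other size factors, no TMM factors, robust dispersion, the L code as covariate, no count filter, a minimum of 10 CPM in 3 libraries, read pairs, multiply placed reads and leaving out each library were alternatives. Other ways to set levels per length, the exon union and the authors' deposited RPKM, were added after seeing the data, as were DESeq2 fits of the listed genes with a library left out. Ensembl IDs were matched to GENCODE mouse release 21 (21813 matched, 2271 not). Replicates were numbered in accession order. The workflow was tested on simulated data. Python 3.11.15 with scipy 1.17.1 was used for tables and exact tests.

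The members and lists were chosen with earlier results of these data known. Named were the STAT genes, Dicer1, up to 4 genes a list (first those called by edgeR or DESeq2, then by size of fold change, with a mean of at least 5 CPM), and the 3 genes most like each STAT gene. Not every gene the rule allows is named. Another gene of the family is not reported here.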

Additional observations from a re-analysis of the deposited data

Results flagged for a closer look

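Among 22 sets of 4 control values checked (levels and ratios of the STAT genes), 3 held a library far from the other 3, where chance alone gives about 1 in 20. The log2 ratio of Stat3 to Stat5b was 2.18 in control replicate 3, the lowest of the controls. That of Stat5a to Stat6 was -4.35 in control replicate 3, the highest of the controls. The ratio of Stat4 to Stat5a was -0.867 in control replicate 4, the lowest of the controls.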

How the results depend on the processing

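The number of genes called, 4 in edgeR, was 405 in DESeq2, 2 in limma-voom, 42 without the count filter, 1 with the filter of 10 CPM, 0 with the L code as covariate and 0 to 3 with a library left out. No alternative called any of the 6 STAT genes. Stat2, Stat3 and Stat5b kept a positive log2 fold change in all 19 alternatives, at 0.37 to 1.0, 0.19 to 0.38 and 0.53 to 0.81. Values near 0 changed sign: Stat5a was -0.04 without TMM factors, -0.25 within L5, 0.45 within L4 and -0.09 to 0.22 with a library left out, Stat6 was -0.04 without TMM factors and -0.14 to 0.11 with a library left out, and Stat4 was -0.01 within L4. The cause was not tested. Stat5a could not be fitted with the filter of 10 CPM, which removes it. The Stat5a to Stat5b log2 ratio was -0.36 within L4 and -0.73 to -0.56 with a library left out, at p of 0.0667 to 0.1, which are the smallest that 6 libraries allow. Differences of other ratios changed sign with a library left out, running from -0.31 to 0.73 for Stat2 to Stat4, -0.30 to 0.06 for Stat2 to Stat5b, -0.69 to 0.38 for Stat3 to Stat4, -0.11 to 0.86 for Stat4 to Stat5a, -0.68 to 0.30 for Stat4 to Stat5b, -0.10 to 0.79 for Stat4 to Stat6 and -0.10 to 0.29 for Stat5a to Stat6. The 14 lists held 8 calls in DESeq2 against 0 in edgeR. No paired analysis was possible because the labels give no replicate numbers that link the groups. With 3 and 4 libraries, the 95% intervals remain wide, from -0.84 to 1.54 on the log2 scale for Stat4 and from -0.20 to 0.82 for Stat3, and RNA amplified by PCR without molecular identifiers gives reads that are not independent molecules.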
